A study of Mus musculus with 4 samples.

Results

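The 3 D-type cyclin genes, Ccnd1, Ccnd2 and Ccnd3, and 5 genes of cyclin-dependent kinase (CDK) inhibitors, Cdkn1a, Cdkn1b, Cdkn1c, Cdkn2a and Cdkn2c, were followed across single bone marrow cells. They are 8 of the 32285 genes counted in the series. They were chosen by their symbols, with their levels in these same libraries already known, so every value here is a description. Unique molecular identifiers (UMIs, each marking 1 captured RNA molecule) were summed over cells that passed a threshold on 1 of 5 lineage genes. Hlf, a transcription factor of stem cells and early progenitors, had to reach 1 UMI. Elane, the elastase of neutrophil precursors, and Car1, the carbonic anhydrase of erythroid precursors, each had to reach 10 UMIs. Fcer1a, a subunit of the IgE receptor of mast cells and basophils, and Cd79a, a signalling chain of the B cell receptor, each had to reach 3 UMIs.

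The series holds 4 mouse libraries, 1 for each group, made with the 10x Genomics 5′ chemistry from CD45.2+ bone marrow 10 weeks after transplantation. MLL3 and MLL4, encoded by Kmt2c and Kmt2d, are histone methyltransferases that act at enhancers. The control Kit+, Mll3/4 deleted Kit+ and Mll3/4SI Kit+ libraries were sorted for the stem cell factor receptor Kit, and the control B220lo library for low amounts of the B cell surface protein B220. All groups share the transplantation and the CD45.2+ sort. The labels do not say what SI stands for, what drove the deletion, which exons were removed, the age or sex of the animals, or how many mice entered a library. With 1 library a group there is no replicate and no test between groups. All intervals are exact 95% Poisson intervals for counts, or exact binomial (Clopper-Pearson) intervals for shares, and cover counting error only.

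After filtering, 11051 control Kit+, 13747 deleted, 11501 Mll3/4SI and 15380 control B220lo cells remained, with medians of 11594, 6507, 11969 and 3246 UMIs a cell. Kmt2c stood at 58.1, 51.8, 62.7 and 144 CPM (UMIs of a gene scaled to a total of 1000000 UMIs) in that order, and Kmt2d at 24.0, 20.1, 20.7 and 41.0 CPM. Because 5′ counting records transcript starts and the removed exons are not named, these levels do not check the labels. Y-linked genes summed to 149 CPM in the deleted library and to at most 0.515 CPM in each of the others, so sex and genotype cannot be told apart. Between 584 and 723 kept cells a library carried a barcode that also occurred in another library, 1291 barcodes in all. Gate markers were compared with the cells of the same library that passed none of the 5 thresholds, here the level outside. Cells with Elane and cells with Car1 had 8 of 8 granulocyte or erythroid markers above it in every library. Cells with Hlf had 7 of 10 stem and progenitor markers above it in the control, 10 of 10 in Mll3/4SI, 7 of 10 in B220lo and 5 of 10 in the deleted library. In the deleted Hlf cells, Mllt3, Meis1, Hoxa9, Kit and Ly6a did not exceed the level outside. Cells with Fcer1a had 8 of 8 basophil or mast markers above it in the control and 7 of 8 in Mll3/4SI, where Cyp11a1 did not exceed it. Cells with Cd79a had 7 of 10 B lineage markers above it in the deleted library, where Ebf1, Pax5 and Rag1 did not exceed it, and 9 of 10 in B220lo. In the deleted library, the 534 cells outside all gates carried 8513 CPM of B lineage and 1519 CPM of stem and progenitor markers. In B220lo, the 58 Hlf and 102 Elane cells carried 2137 and 901 CPM of B lineage markers, against 44.6 and 55.9 CPM in control Kit+.

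A D-type cyclin binds CDK4 or CDK6, and the kinase phosphorylates the retinoblastoma protein, which releases E2F transcription factors for entry into S phase. Inhibitors of the Ink4 family, among them p16Ink4a from Cdkn2a and the product of Cdkn2c, bind CDK4 and CDK6 and displace the cyclin. The Cip/Kip proteins p21 (Cdkn1a), p27 (Cdkn1b) and p57 (Cdkn1c) bind cyclin-CDK complexes and mainly inhibit CDK2. In B cell development, cyclin D3 drives the division of large precursor B cells, which then stop dividing before they rearrange a light chain. In stem cells, p57 and p27 are known for keeping cells out of division, and p18 (Cdkn2c) for limiting self-renewal.

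Promoter sequence is shown for Cdkn1a and Cdkn2a because both differed between the Cd79a cells of 2 libraries, and because Cdkn1a is a textbook target of p53 and Cdkn2a of E2F. Each window runs from 250 to 41 bases before an annotated start and is written 5′ to 3′ on the gene's own strand, from RefSeq on GRCm38.p6. For Cdkn1a the upstream of 2 annotated starts is shown. In that window, chr17:29090729-29090938 on the plus strand, capitals mark 2 p53 half-sites, 73 to 64 and 51 to 42 bases before the start. The Cdkn2a gene has separate starts for p16Ink4a and p19Arf. In the p16Ink4a window, chr4:89282233-89282442 on the minus strand, capitals mark a match to the E2F motif TTTNNCGC, 244 to 237 bases before the start. In the p19Arf window, chr4:89294660-89294869 on the minus strand, capitals mark a match to that motif 99 to 92 bases before the start.
Cdkn1a: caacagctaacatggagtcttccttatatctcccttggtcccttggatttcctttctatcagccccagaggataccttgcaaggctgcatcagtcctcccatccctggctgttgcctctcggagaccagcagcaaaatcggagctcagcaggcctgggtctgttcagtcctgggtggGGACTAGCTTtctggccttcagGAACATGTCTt
Cdkn2a, p16Ink4a start: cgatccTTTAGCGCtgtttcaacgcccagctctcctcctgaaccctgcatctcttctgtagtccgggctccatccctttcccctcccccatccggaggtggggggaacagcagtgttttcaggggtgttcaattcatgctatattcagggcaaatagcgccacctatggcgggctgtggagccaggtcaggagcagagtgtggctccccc
Cdkn2a, p19Arf start: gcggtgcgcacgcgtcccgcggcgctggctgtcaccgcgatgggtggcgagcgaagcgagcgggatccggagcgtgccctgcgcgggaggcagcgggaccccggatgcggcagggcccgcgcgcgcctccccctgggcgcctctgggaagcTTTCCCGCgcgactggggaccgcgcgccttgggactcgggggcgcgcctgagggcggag

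Both strands were searched. Of all 32851 promoter windows of that length, 6% held a p53 half-site and 3.4% held the E2F motif. The window of the other Cdkn1a start, chr17:29093519-29093728, held 0 p53 half-sites and is not printed, since an exon of another gene covers it. The p19Arf window also held the SP1 motif GGGCGG, 48 to 43 bases before the start, as did 26.7% of all windows. Windows of Ccnd3, Cdkn1b and Cdkn2c were searched too and held 0 E2F motifs and 0 p53 half-sites. Of these genes, Cdkn2c also differed at least 2-fold between the Cd79a cells of the deleted and B220lo libraries. No windows were available for Ccnd1, Ccnd2 and Cdkn1c. A match describes letters and is not evidence of binding. The deposited counts are per gene, so p16Ink4a and p19Arf transcripts, which share their later exons, were counted together.

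**Figure D1:**
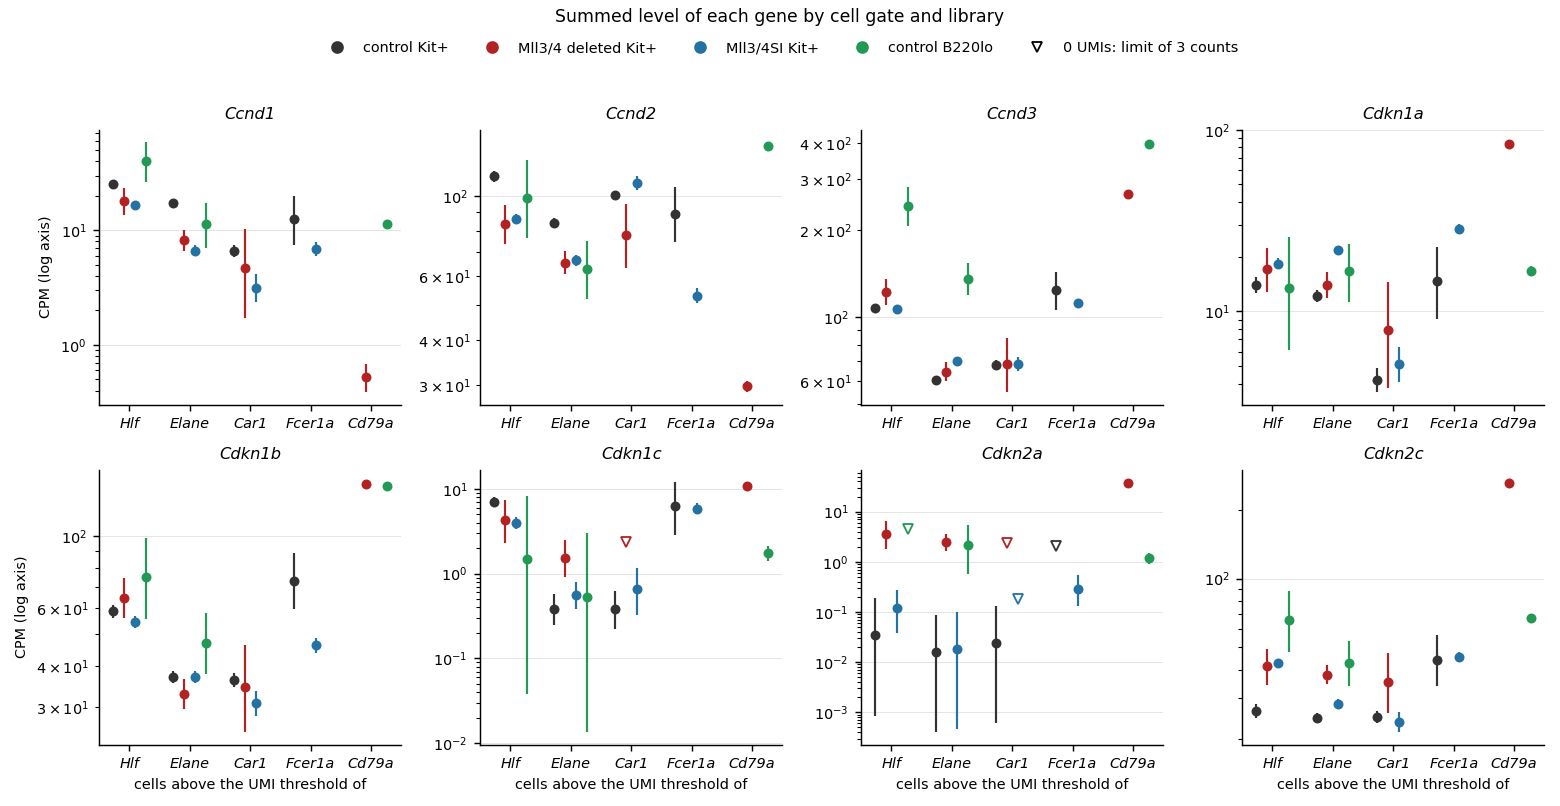
Level of each of the 8 genes (CPM, log axis) in cells passing the Hlf, Elane, Car1, Fcer1a or Cd79a threshold, with 1 point for each library and bars for the 95% counting interval. Open triangles mark groups with 0 UMIs at the limit that 3 counts allow. In Cd79a cells the deleted library lies above control B220lo for Cdkn1a, Cdkn1c, Cdkn2a and Cdkn2c and below it for the 3 cyclin D genes.

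The comparison that separated the 8 genes most was that of the 12591 Cd79a cells of the deleted Kit+ library with the 10839 Cd79a cells of the control B220lo library. Cdkn1a, Cdkn1c, Cdkn2a and Cdkn2c were at least 2-fold higher in the deleted cells, Ccnd1 and Ccnd2 were at least 2-fold lower, and Ccnd3 and Cdkn1b were within 2-fold. A 2-fold change was read on the log2 ratio of CPM with 1 CPM added to each group, over genes with 100 or more UMIs in the pair. By that rule 25.5% of 13686 genes passed, 13.1% higher and 12.4% lower, against 6 of the 8 genes, but the 8 were picked with this contrast known and nothing is read from the difference. The median log2 ratio was 0.98 over the 8 genes and 0.01 over all genes tested. These libraries differ in sort and in Y-linked level as well as in genotype, which cannot be told apart. They also differ in markers of B cell stage: Kit stood at 369 against 7.79 CPM, Dntt, the terminal transferase of pro-B cells, at 1301 against 153 CPM, and Ms4a1, which encodes the mature B cell protein CD20, at 0.602 against 392 CPM. Levels within contig states and among cells with a Kit UMI follow the account of each gene.

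Ccnd1 (ENSMUSG00000070348, chr7:144929931-144939925, minus strand) encodes cyclin D1, the least abundant D-type cyclin of B cells. In Hlf cells it stood at 25.1 CPM (23.3 to 27.0) in the control, 18.0 (13.6 to 23.5) in the deleted library and 16.5 (15.3 to 17.8) in Mll3/4SI. The B220lo value of 40.4 CPM in 58 Hlf cells rests on 27 UMIs, 14 of them from 1 cell. In Elane cells it was 17.2 CPM (16.2 to 18.3) in the control, 8.20 (6.59 to 10.1) in the deleted library, 6.66 (6.0 to 7.38) in Mll3/4SI and 11.2 in B220lo. The control was thus the highest of the 3 Kit+ libraries, and in Elane cells its interval did not overlap those of the other two. In Car1 cells the values were 6.62 CPM in the control, 4.72 in the deleted library and 3.16 in Mll3/4SI. The deleted value rests on 6 UMIs, and its interval of 1.73 to 10.3 CPM holds the other 2 values. In Fcer1a cells the control had 12.6 CPM and Mll3/4SI 6.89 CPM. In Cd79a cells Ccnd1 was near 0 in the deleted library, at 0.521 CPM (51 UMIs, 0.388 to 0.685), and at 11.4 CPM (615 UMIs, 10.5 to 12.4) in B220lo. That is 21.9-fold lower in the deleted cells, with a counting interval of 16.5 to 29.8. The B220lo level rests on few cells: only 245 of the 10839 had a Ccnd1 UMI, and 457 of the 615 UMIs lay in 156 cells with 3 or more UMIs of Siglech, a surface marker of plasmacytoid dendritic cells. Those 156 cells had 273 CPM. The other 10683 cells had 3.03 CPM (158 UMIs), against which the deleted cells, none with that many Siglech UMIs, were 5.81-fold lower (4.21 to 8.13), a comparison added after seeing the data. Of the 4 plasmacytoid markers on the list used, Siglech stood at 0 CPM in deleted and 46.7 CPM in B220lo Cd79a cells, Ccr9 at 0.541 and 11.5, Bst2 at 111 and 164 and Tcf4 at 703 and 209 CPM.

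Ccnd2 (ENSMUSG00000000184, chr6:127125162-127152193, minus strand) encodes cyclin D2, which B cells induce on receptor stimulation. In Hlf cells the control had 113 CPM, Mll3/4SI 86.3, the deleted library 83.7 and B220lo 98.8. In Elane cells the control had 84.4 CPM, with 66.3 in Mll3/4SI, 65.3 in the deleted library and 62.7 in B220lo. In Car1 cells the control had 100.3 CPM, the deleted library 77.9 and Mll3/4SI 109. In Fcer1a cells the control had 89.2 CPM and Mll3/4SI 53 CPM. No Kit+ library stood apart by 2-fold. In Cd79a cells the deleted library had 29.8 CPM (28.7 to 30.9) against 138 (134 to 141) in B220lo, 4.62-fold lower (4.43 to 4.82).

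Ccnd3 (ENSMUSG00000034165, chr17:47505051-47599691, plus strand) encodes cyclin D3. It was the steadiest of the 3 among the Kit+ libraries. In Hlf cells it stood at 107 CPM in the control, 122 in the deleted library, 107 in Mll3/4SI and 242 in B220lo. In Elane cells the values were 60.4, 64.6, 70.5 and 136 CPM in that order, and in Car1 cells 68.3, 68.5 and 68.6 CPM for the 3 Kit+ libraries. The B220lo Hlf and Elane cells also carried B lineage RNA, at 2137 and 901 CPM of its markers. In Fcer1a cells the control had 124 CPM and Mll3/4SI 112 CPM. In Cd79a cells Ccnd3 was the most abundant cyclin D of both libraries, at 267 CPM (264 to 270) in the deleted library and 398 (393 to 403) in B220lo. The ratio of 0.671 (0.659 to 0.684) is within 2-fold.

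Since UMIs count each transcript once whatever its length, the 3 cyclins can be read as shares of their summed UMIs. In control Hlf cells Ccnd2 and Ccnd3 were close, at 46.1% and 43.7%, with 10.2% Ccnd1. Deleted Hlf cells had 37.3% Ccnd2 and 54.6% Ccnd3, and Mll3/4SI Hlf cells 41.2% and 50.9%. In Car1 cells Ccnd2 led in all 3 Kit+ libraries, from 51.6% to 60.2%. In Cd79a cells Ccnd3 supplied 89.8% (89.5 to 90.2) of cyclin D UMIs in the deleted library and 72.8% (72.3 to 73.3) in B220lo, while Ccnd2 supplied 10.0% and 25.1%. The summed level of the 3 was 298 CPM in the deleted Cd79a cells and 547 CPM in those of B220lo.

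**Figure D2:**
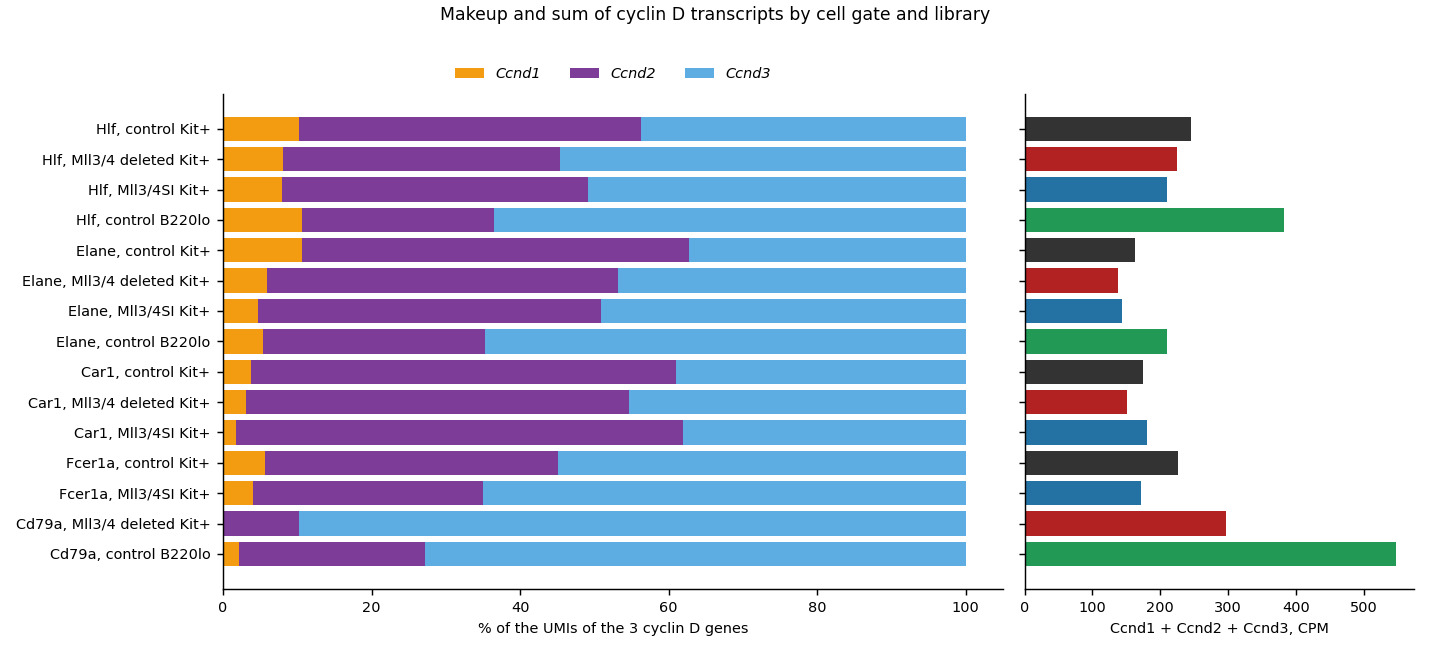
Share of each D-type cyclin in the summed Ccnd1, Ccnd2 and Ccnd3 UMIs (left, percent) and the summed level (right, CPM) by library and gate. Ccnd3 takes 89.8% in deleted Cd79a cells and 43.7% in control Hlf cells, and Ccnd2 takes 57.2% in control Car1 cells.

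Cdkn1a (ENSMUSG00000023067, chr17:29090976-29100727, plus strand) encodes p21, the best known p53 target. In Hlf cells it stood at 14 CPM in the control, 17.1 in the deleted library, 18.3 in Mll3/4SI and 13.5 in B220lo. In Elane cells the values were 12.2, 14, 21.6 and 16.6 CPM, and in Car1 cells 4.19, 7.87 and 5.13 CPM for the 3 Kit+ libraries, the deleted value resting on 10 UMIs. In Fcer1a cells Mll3/4SI had 28.4 CPM and the control 14.7 CPM. The deleted Cd79a cells had 83.7 CPM (81.9 to 85.5), 5.01-fold (4.67 to 5.37) the 16.7 CPM (15.6 to 17.8) of B220lo, and more than any Hlf, Elane, Car1 or Fcer1a group of the 3 Kit+ libraries that was compared.

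Cdkn1b (ENSMUSG00000003031, chr6:134920401-134925513, plus strand) encodes p27, which is controlled largely by protein turnover. Its level was close in both Cd79a groups, at 144 CPM in the deleted library and 142 CPM in B220lo, a ratio of 1.01 (0.985 to 1.04). In Hlf cells it stood at 58.7 CPM in the control, 64.6 in the deleted library, 54.6 in Mll3/4SI and 74.8 in B220lo. In Elane cells the values were 37.1, 33.0, 37.1 and 47.1 CPM, and in Car1 cells 36.4, 34.6 and 30.8 CPM. The widest gap between Kit+ libraries was in Fcer1a cells, with 73.0 CPM in the control and 46.2 CPM in Mll3/4SI.

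Cdkn1c (ENSMUSG00000037664, chr7:143458339-143461050, minus strand) encodes p57, an imprinted gene. In Hlf cells the control had 7.0 CPM, Mll3/4SI 3.95 and the deleted library 4.27, where 9 of 13 UMIs came from 1 cell, and B220lo had 1.5 CPM. It was low in Elane cells, from 0.384 CPM in the control to 1.55 CPM in the deleted library, and in Car1 cells, with 0 UMIs in the deleted library, which allows up to 2.36 CPM. In Fcer1a cells the control had 6.32 CPM and Mll3/4SI 5.85 CPM. In Cd79a cells the deleted library had 10.7 CPM (10.1 to 11.4) and B220lo 1.74 CPM (1.41 to 2.13), where 17 of 94 UMIs came from 1 cell. The ratio was 6.14 (4.96 to 7.66).

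Cdkn2a (ENSMUSG00000044303, chr4:89274471-89294653, minus strand) encodes p16Ink4a and, in another reading frame, p19Arf, which binds Mdm2 and frees p53. It was close to undetected in the control Kit+ library, with 1 UMI in the 2493 Hlf cells, 1 in the 4223 Elane cells, 1 in the 2288 Car1 cells and 0 in the 127 Fcer1a cells, which allows up to 2.11 CPM. Mll3/4SI had 5 UMIs in Hlf cells, 1 in Elane cells, 0 in Car1 cells and 9 in Fcer1a cells. The deleted library had 11 UMIs in Hlf cells, 27 in Elane cells and 0 in Car1 cells. In Cd79a cells it had 3675 UMIs, or 37.5 CPM (36.3 to 38.8), against 63 UMIs, or 1.17 CPM (0.898 to 1.5), in B220lo, a ratio of 32.1 (25.0 to 41.9). The B220lo Fcer1a cells had 152 CPM, but 56 of the 57 UMIs came from 1 of the 26 cells.

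Cdkn2c (ENSMUSG00000028551, chr4:109660876-109667189, minus strand) encodes p18Ink4c. It stood at 26.3 CPM in control Hlf cells, 41.3 in deleted, 42.7 in Mll3/4SI and 65.8 in B220lo Hlf cells. In Elane cells the values were 24.6, 38.1, 28.4 and 42.9 CPM, and in Car1 cells 24.9, 35.4 and 23.6 CPM for the 3 Kit+ libraries. The B220lo Hlf and Elane cells also carried the B lineage RNA given above. In Fcer1a cells the control had 44.2 CPM and Mll3/4SI 45.5 CPM. The deleted Cd79a cells had 260 CPM (257 to 264), similar in size to their Ccnd3 level, against 67.0 CPM (64.9 to 69.3) in B220lo, a ratio of 3.88 (3.75 to 4.02).

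Shares of cells with a UMI, after each cell was thinned to 2000 UMIs, lay in the same order as the CPM between these libraries for 7 of the 8 genes; the exception was Cdkn1b. A Cdkn2a UMI was seen in 6.41% of deleted and 0.157% of B220lo Cd79a cells, and in 0 of the thinned control Hlf, Elane and Car1 cells. Cdkn2c was seen in 39.2% and 8.32%, Cdkn1a in 12.5% and 2.26%, and Cdkn1c in 1.94% and 0.293%. Ccnd1 was seen in 0.0814% and 1.25%, or 0.564% of the B220lo cells with under 3 Siglech UMIs, and Ccnd2 in 5.10% and 13.8%. Ccnd3 was seen in 35.6% and 44.3%, and Cdkn1b in 27.2% and 29.0%. Before thinning, when the median depths of the Cd79a cells were 6458 and 3077 UMIs, the shares were 20.1% and 0.480% for Cdkn2a and 75.0% and 17.7% for Cdkn2c. Genes annotated on the opposite strand overlap Ccnd1 (LTO1), Ccnd2, Ccnd3 (Bysl) and Cdkn1c, and whether counting used the strand is not given in the sources used here.

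The Cd79a threshold moved these levels. In the deleted library the 147 cells with 3 Cd79a UMIs had 144 CPM of Cdkn2c and 5.27 CPM of Cdkn2a, and the 243 cells with 2 UMIs, just outside, had 69.4 and 5.12 CPM. In B220lo, Ccnd1 stood at 58.6 CPM in the 586 cells with 3 UMIs and at 98.4 CPM in the 890 cells with 2. For Hlf, Ccnd1 in the control stood at 25.3 CPM in the 1528 cells with 1 UMI and at 16.3 CPM in the 8558 cells with none.

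The B cell comparison was repeated within contig states, which follow antigen receptor rearrangement: cells with no contig, with a heavy chain only, or with a light chain. No contig means that none was recorded, not that none was rearranged. The states did not match the libraries for B cell stage. Among cells with no contig and no Kit UMI, Dntt reached 1370 CPM (deleted) against 408 CPM (B220lo). With a Kit UMI these were 1279 and 937 CPM. Heavy chain only cells without a Kit UMI had 1411 and 22.4 CPM. The deleted Cd79a cells comprised 9649 with no contig, 2910 with a heavy chain only and 32 with a light chain, and the B220lo cells 2725, 1539 and 6575. Among cells with no contig, the same 4 inhibitors were at least 2-fold higher and Ccnd1 and Ccnd2 at least 2-fold lower, 6 of 8 genes, where 22.6% of all genes passed, 11.7% higher and 10.9% lower. Cdkn2a stood at 36.5 CPM in the deleted cells and 1.02 CPM in B220lo (ratio 35.8, 21.3 to 65.5), and Cdkn2c at 260 and 71.6 CPM (ratio 3.63). Cdkn1a stood at 82.5 and 32.2 CPM (ratio 2.56, 2.33 to 2.83), closer together than in the whole gate. Ccnd2 stood at 29.3 and 106 CPM, 3.62-fold lower in the deleted cells. Ccnd1 stood at 0.456 and 18.0 CPM, 39.5-fold lower, but 194 of its 247 B220lo UMIs lay in 65 cells with 3 or more Siglech UMIs. Without those cells B220lo had 4.03 CPM and the gap was 8.84-fold (5.64 to 14).

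Among heavy chain only cells, 4 of 7 tested genes were at least 2-fold higher and 1, Ccnd2, lower, where 23.2% of all genes passed, 14.8% higher and 8.48% lower. Cdkn2a stood at 40.9 and 1.16 CPM (ratio 35.3), Cdkn2c at 263 and 101 CPM (ratio 2.60), Cdkn1a at 87.6 and 15.7 CPM (ratio 5.59) and Cdkn1c at 9.35 and 2.10 CPM (ratio 4.45). Ccnd2 stood at 30.7 and 145 CPM, 4.71-fold lower in the deleted cells. That gap was smaller as a mean of each cell's CPM, with a log2 ratio of -1.07 in place of -2.20, and in cells with 0 or 1 UMI of the G2 and mitosis genes the ratio was 1.0 (0.625 to 1.64) and 0.841 (0.483 to 1.51), against 0.228 (0.157 to 0.326) in cells with 2 or more. Ccnd1, with 16 and 66 UMIs, was too sparse for the 2-fold rule. Ccnd3 was lower but within 2-fold in both states, with ratios of 0.556 in cells with no contig and 0.534 in heavy chain only cells.

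Within the deleted library the contig state made little difference: 0 of 7 tested genes differed 2-fold between heavy chain only and no contig cells, where 0.377% of all genes did. The inhibitor values there were 82.5 and 87.6 CPM for Cdkn1a, 36.5 and 40.9 CPM for Cdkn2a and 260 and 263 CPM for Cdkn2c. Within B220lo, 1 of 6 tested genes passed, where 4.38% of all genes passed and 4.08% were lower: Ccnd1 stood at 18.0 CPM without a contig and 6.94 CPM with a heavy chain (ratio 0.385, 0.289 to 0.507). Of the 66 heavy chain UMIs 14 came from 1 cell, and the log2 ratio of -1.26 was within 2-fold with doubled thresholds (-0.74), as a mean of each cell's CPM (-0.89) or with a pseudocount of 10 CPM (-0.73). Of these UMIs 46 with a heavy chain and 194 without a contig lay in 13 and 65 cells with 3 or more Siglech UMIs, and without those cells the levels were 2.14 and 4.03 CPM, a log2 ratio of -0.68 and within 2-fold. Cdkn1a went from 32.2 to 15.7 CPM (0.487, 0.402 to 0.587), just inside 2-fold once 1 CPM was added, while Cdkn2c was 1.41-fold and Ccnd2 1.37-fold higher with a heavy chain. The Ccnd2 direction turned with thinning (log2 ratio -0.24). From heavy chain only to light chain, 0 of 6 tested genes passed, where 6.32% of all genes did. Cdkn2c stood at 101 and 54.5 CPM (0.540, 0.499 to 0.585), Ccnd3 at 479 and 333 CPM and Cdkn1a at 15.7 and 10.1 CPM. In that step 17 of 20 genes of G2 and mitosis were at least 2-fold lower, and their sum went from 5315 to 2549 CPM.

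**Figure D3:**
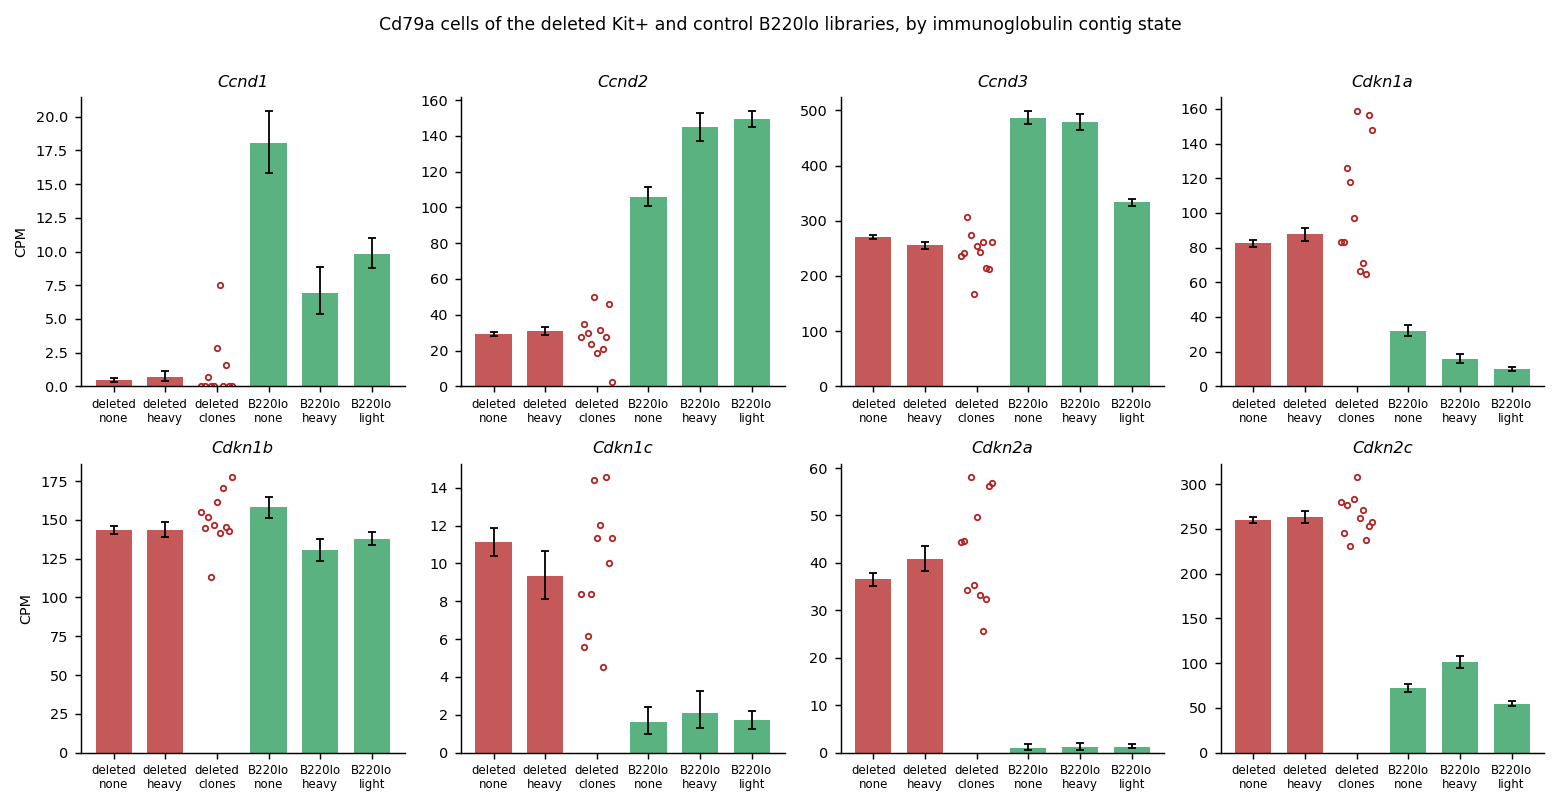
Level of each gene (CPM, axis from 0) in Cd79a cells by contig state. Bars show deleted cells with no contig or a heavy chain only and B220lo cells with no contig, a heavy chain only or a light chain, with 95% counting intervals, and points show 11 heavy chain clones of the deleted library. Cdkn2a stands at 36.5 and 40.9 CPM in the deleted states and at 1.02 to 1.24 CPM in the B220lo states.

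Cells with a Kit UMI were also compared alone, a choice made after seeing the data. A Kit UMI was found in 83.9% of deleted Cd79a cells (10568 cells) and in 2.35% of those of B220lo (255 cells). By state the B220lo share was 5.91% (5.05 to 6.86) with no contig, 1.17% (0.695 to 1.84) with a heavy chain only and 1.16% (0.912 to 1.44) with a light chain, a stage at which B cells no longer make Kit, at median depths of 3009, 3242 and 3074 UMIs. How many of the 255 cells express Kit is not known. Among them Cdkn2c stood at 259 and 68.1 CPM (ratio 3.80, 3.29 to 4.40), and Cdkn2a at 37.7 and 2.13 CPM (6 UMIs in B220lo, ratio 17.7, 8.14 to 48.3). The Cdkn1a gap was smaller, at 84.3 and 46.1 CPM (ratio 1.83, 1.54 to 2.19), and within 2-fold. Ccnd2 stood at 30.2 and 135 CPM, again lower in the deleted cells, and Ccnd3 at 270 and 533 CPM, within 2-fold. In cells with both a Kit UMI and no contig the Cdkn1a gap was smaller again, at 83.1 and 60.7 CPM (ratio 1.37). In those cells, 161 of them in B220lo, the gap was 9.88-fold (4.53 to 26.9) for Cdkn2a, 3.36-fold for Cdkn2c and 9.15-fold lower for Ccnd1, against 35.8-fold, 3.63-fold and 39.5-fold in all cells with no contig. The Ccnd1 ratio of 0.109 (0.0472 to 0.294) rests on 4.34 CPM in those 161 cells. The 39.5-fold gap was smaller without the Siglech cells, as given above. Ccnd2 stood at 29.9 and 107 CPM in the cells with a Kit UMI and no contig. Ccnd3 stood at 275 and 614 CPM, and its log2 ratio of -1.16 was past 2-fold.

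The control Kit+ library, which shares the sort of the deleted library, held 47 Cd79a cells, 18 of them with no contig and 29 with a light chain, fewer than the 50 cells set for a comparison. Their levels are therefore given as values alone. Granulocyte markers summed to 16198 CPM and B lineage markers to 11510 CPM in the 18 cells with no contig. For deleted cells of that state the sums were 1122 and 15440 CPM. The G2 and mitosis genes summed to 8611 CPM in the 18 cells, against 4043 (deleted) and 4013 CPM (B220lo) in that state. What these differences add to the levels below was not tested. In the 18 cells with no contig Cdkn1a stood at 85.9 CPM (12 UMIs, 44.4 to 150), an interval that holds the 82.5 CPM of the deleted cells in that state. Cdkn2c stood at 129 CPM (18 UMIs, 76.4 to 204), below the 260 CPM of the deleted cells and with the 71.6 CPM of B220lo just under its lower bound. Cdkn2a had 0 UMIs there, which allows up to 21.5 CPM, below the 36.5 CPM of the deleted cells. Ccnd2 stood at 50.1 CPM (7 UMIs, 20.1 to 103), an interval that holds the deleted value, and Ccnd3 at 422 CPM (321 to 545). The 6 Mll3/4SI Cd79a cells with no contig had 13 Cdkn1a, 11 Cdkn2c and 2 Cdkn2a UMIs, and the 22 with a light chain had 3, 6 and 0.

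Cells of 1 clone share their heavy chain, and 11 clones of 68 to 377 cells could be followed in the deleted library. Every one of the 11 had a Cdkn2a level of at least 25.6 CPM, with a median of 44.5 and a highest of 58.0 CPM. Cdkn2c ranged from 231 to 307 CPM with a median of 262, and Cdkn1a from 64.7 to 159 CPM with a median of 97.0. Ccnd2 varied most among the abundant genes, from 2.27 to 49.8 CPM with a median of 27.7. Its lowest value rests on 1 UMI in a clone of 68 cells (0.0576 to 12.7 CPM). The 1261 cells of smaller clones had 38.2 CPM of Cdkn2a, 262 of Cdkn2c, 73.5 of Cdkn1a and 32.2 of Ccnd2, within the range of the larger clones.

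Cells were next split by 20 genes of G2 and mitosis after thinning to 2000 UMIs, into those with 2 or more of these UMIs, here called cycling, and those with 0. Cells in G1 or S phase can fall in the group with 0, so the split does not separate dividing from resting cells. Cycling cells made up 40.4% of deleted and 35.3% of B220lo Cd79a cells. Within contig states the order was not kept: they made up 40.8% and 41.6% of cells with no contig and 39.1% and 52.7% of heavy chain only cells, and 28.9% of the B220lo light chain cells. In B220lo, Cdkn2c was higher in cycling cells, at 97.7 against 21.0 CPM (ratio 4.65, 3.90 to 5.56), and so was Cdkn1a, at 24.5 against 4.89 CPM (5.01, 3.49 to 7.36). In the deleted library Cdkn2c barely differed, at 282 against 261 CPM (1.08, 1.02 to 1.14), and Cdkn1a stood at 111 against 64.5 CPM (1.72, 1.56 to 1.91). The difference between the libraries was therefore wider in cells with 0 such UMIs, 12.4-fold for Cdkn2c and 13.2-fold for Cdkn1a, than in cycling cells, 2.89-fold and 4.55-fold. Within cells with no contig the same held, with Cdkn2c ratios of 16.7 and 3.01 and Cdkn1a ratios of 7.72 and 2.91.

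In the deleted cells Cdkn2a and Cdkn1c were higher in cycling cells, at 51.0 against 24.4 CPM (2.09, 1.79 to 2.46) and 16 against 5.63 CPM (2.85, 2.07 to 3.97). Ccnd2 went the other way, at 18.2 against 38.7 CPM (0.472, 0.393 to 0.566). Ccnd3 was higher in cycling Cd79a cells of both libraries, 1.32-fold in the deleted and 1.38-fold in B220lo. It was lower in cycling cells of the control Hlf (0.663, 0.555 to 0.792) and Car1 (0.712, 0.555 to 0.920) groups. The same held in the Mll3/4SI Hlf (0.736), Elane (0.736) and Fcer1a (0.712) groups. In the other Hlf, Elane and Car1 groups of the Kit+ libraries that were split, its interval held 1. In B220lo, Ccnd2 was 0.827-fold (0.743 to 0.920) in cycling cells of the whole gate, at 89.3 against 108 CPM. By state Ccnd2 was 1.14-fold (0.885 to 1.46) with no contig, 2.56-fold (1.65 to 4.11) with a heavy chain only and 0.737-fold (0.644 to 0.842) with a light chain. Among cells with 0 of these UMIs, deleted over B220lo, Ccnd2 was 0.358-fold (0.315 to 0.406) in the whole gate and 0.556-fold (0.445 to 0.699) with no contig. With a heavy chain only it stood at 33.0 and 33.1 CPM, the second from 25 UMIs (ratio 1.0, 0.625 to 1.64). In control Hlf cells Ccnd1 stood at 18.0 CPM in cycling cells and 41.4 CPM in cells with 0 of these UMIs (0.435, 0.291 to 0.646). The Mll3/4SI ratio was 0.432.

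**Figure D4:**
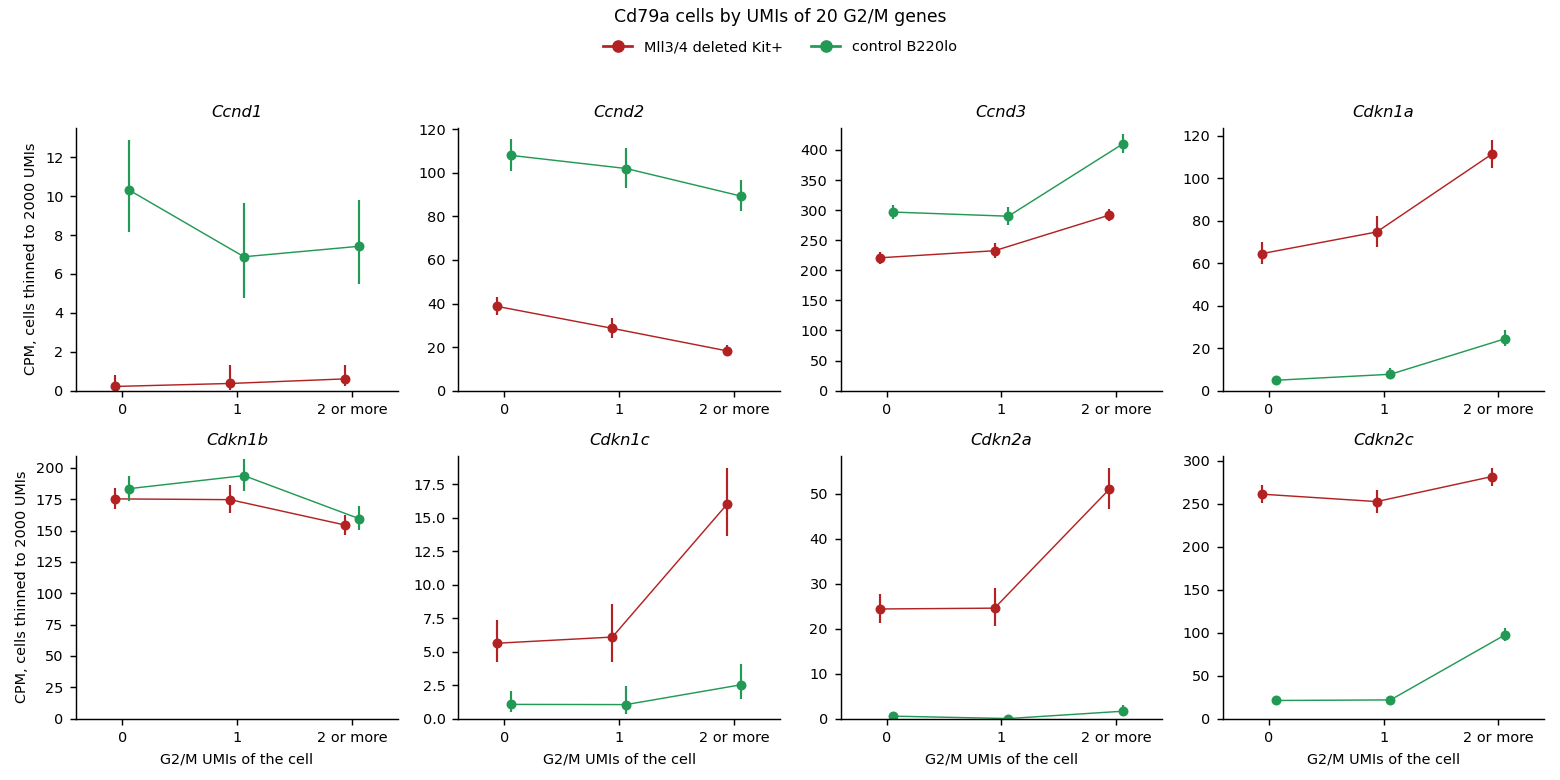
Level of each gene (CPM of cells thinned to 2000 UMIs) in Cd79a cells with 0, 1 or 2 and more UMIs of the G2 and mitosis genes, by library, with 95% counting intervals. Cdkn2c goes from 21.0 to 97.7 CPM in control B220lo and from 261 to 282 CPM in the deleted library.

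Co-detection within single thinned cells gave a further view. Among deleted Cd79a cells with a Cdkn1a UMI, 13% (11.4 to 14.8) also had a Cdkn2a UMI, against 5.47% (5.05 to 5.92) of cells without one. Cdkn2c was seen in 39.3% of cells with a Cdkn1a UMI and 39.2% of those without. In B220lo, by contrast, Cdkn2c was seen in 19.9% (14.8 to 25.9) of Cd79a cells with a Cdkn1a UMI and in 8.05% of those without. Cdkn1b was seen less often with Ccnd2 than without it in both libraries, in 20.4% against 27.5% of deleted and 22.2% against 30.1% of B220lo cells.

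Outside the B lineage, the question was whether the deleted or the Mll3/4SI library differed from the control within 1 gate. These comparisons share the control library, so their values are given side by side. Deleted over control, 0 of 7 tested genes passed 2-fold in Hlf cells, 0 of 6 in Elane cells and 0 of 6 in Car1 cells, where 4%, 3.79% and 4.38% of all genes did. These counts leave out genes under 100 UMIs in the pair. In Hlf cells that was Cdkn2a, at 3.61 CPM (11 UMIs) in the deleted library and 0.034 CPM (1 UMI) in the control. In Elane cells these were Cdkn2a, at 2.46 and 0.016 CPM (27 and 1 UMIs), and Cdkn1c, at 1.55 and 0.384 CPM. In Car1 cells both had 0 UMIs in the deleted library. Mll3/4SI over control, 0 of 7 passed in Hlf cells, 1 of 6 in Elane cells, 0 of 6 in Car1 cells and 0 of 7 in Fcer1a cells, where 2.65%, 1.98%, 1.24% and 7.59% of all genes did. The deleted library had 4 Fcer1a cells, too few to compare. The 1 gene was Ccnd1, 2.59-fold (2.30 to 2.92) lower in Mll3/4SI Elane cells, where 0.582% of all genes were lower by that rule.

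Ccnd1 had a ratio below 1 in each of these 7 comparisons. In deleted Car1 cells its interval held 1 (0.259 to 1.57, from 6 deleted UMIs). Its deleted over control ratios were 0.719 in Hlf, 0.475 in Elane and 0.713 in Car1 cells, and its Mll3/4SI over control ratios 0.657, 0.386, 0.477 and, in Fcer1a cells, 0.545. The Hlf direction turned when deleted and control cells were thinned to 2000 UMIs (log2 ratio 0.36), and the Fcer1a direction turned with thinning too (0.07). The Elane ratio of the deleted library had a log2 value of -0.99 with 1 CPM added, just inside the threshold. Cdkn2c was higher in the deleted library in all 3 gates, 1.57-fold (1.29 to 1.90) in Hlf, 1.55-fold (1.39 to 1.73) in Elane and 1.42-fold (1.03 to 1.92) in Car1 cells. In Mll3/4SI it was 1.62-fold higher in Hlf cells and 1.16-fold, 0.949-fold and 1.03-fold the control in Elane, Car1 and Fcer1a cells.

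B lineage RNA moved with the deleted values. The 10 B lineage markers summed to 1047, 963 and 528 CPM in deleted Hlf, Elane and Car1 cells, to 44.6, 55.9 and 9.11 CPM in the control, and to 15359 CPM in deleted Cd79a cells. Of the 186 deleted Hlf cells 84 also passed another threshold, as did 152 of the 554 Elane cells. Among cells in 1 gate alone, the B lineage sum was 269 CPM in 102 deleted Hlf cells and 148 CPM in 402 Elane cells. There Cdkn2c stood at 33.9 CPM against 29.2 in control Hlf cells and at 28.8 against 24.9 in Elane cells, and 2 Cdkn2a UMIs remained in each of the deleted groups. The part of B lineage RNA in the remaining differences was not tested.

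Of the other genes, in Mll3/4SI over control, Cdkn1a was 1.31-fold, 1.78-fold, 1.22-fold and 1.93-fold the control in Hlf, Elane, Car1 and Fcer1a cells. The Car1 interval held 1 (0.934 to 1.59), and the Fcer1a ratio (1.25 to 3.13) sets 2341 cells against 127 control cells with 21 UMIs. Cdkn1a in deleted Hlf cells was 1.22-fold the control, a direction that 3 alternatives turned, with log2 ratios from -1.11 to 1.02. Ccnd2 was 0.739-fold, 0.774-fold and 0.777-fold the control in deleted Hlf, Elane and Car1 cells. In Mll3/4SI it was 0.762-fold, 0.785-fold, 1.08-fold and 0.595-fold in Hlf, Elane, Car1 and Fcer1a cells, the last at a log2 ratio of 0.00 when thinned. Ccnd3 stayed between 0.903-fold and 1.17-fold in all 7 comparisons. Cdkn1c in Hlf cells was 0.610-fold the control in the deleted library, a direction that 2 alternatives turned (log2 ratio up to 0.06), and 0.565-fold in Mll3/4SI.

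**Figure D5:**
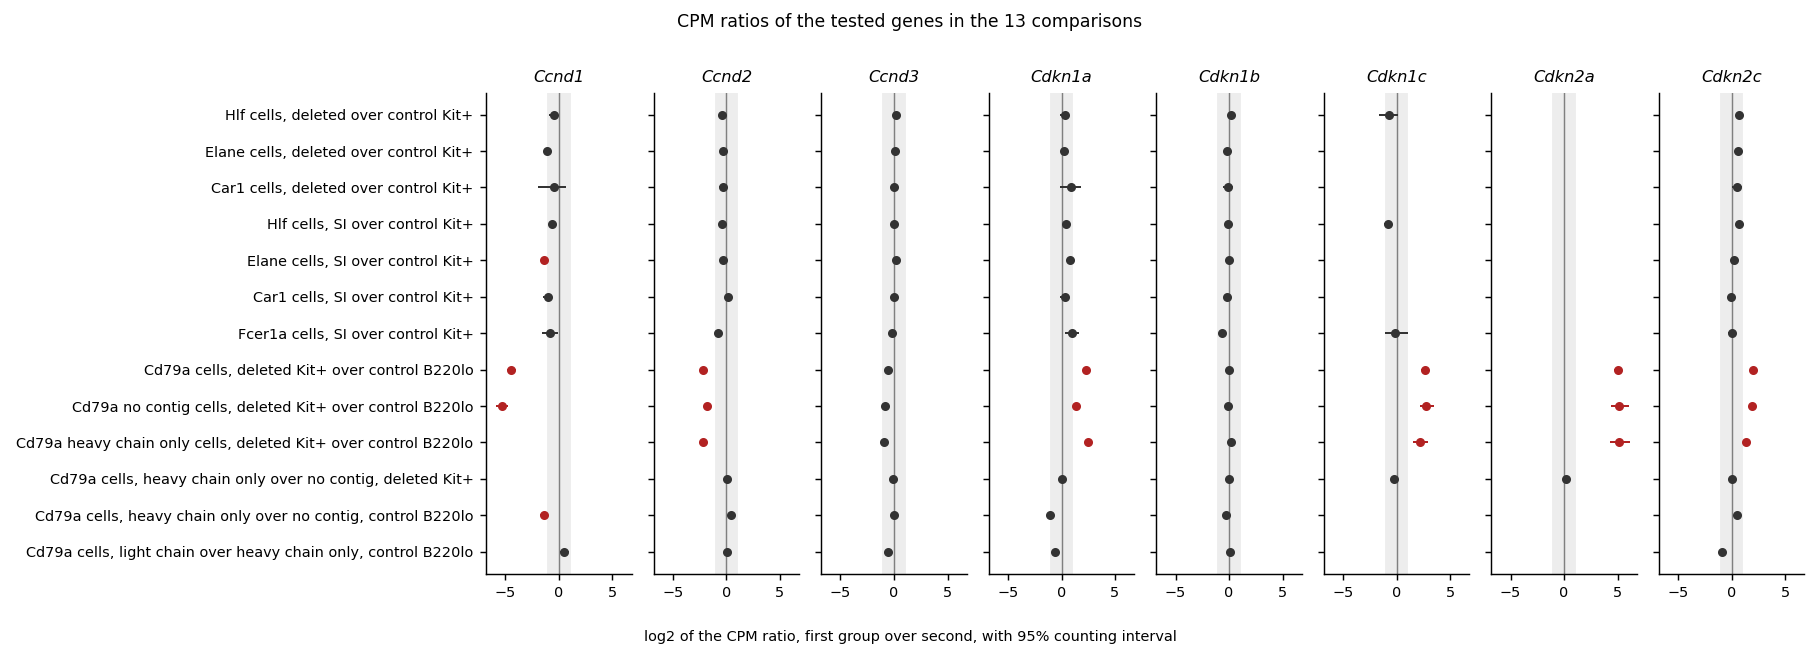
Log2 ratio of CPM for each gene in 13 comparisons, with the 95% counting interval, for genes with 100 or more UMIs in the pair. The grey band spans 2-fold and red points pass it once 1 CPM is added, among them Cdkn2a, at 32.1-fold in deleted over B220lo Cd79a cells, and Ccnd1, at 2.59-fold lower in Mll3/4SI Elane cells.

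The other genes of the pathway were read from lists, by the same 2-fold rule. The lists were chosen with earlier results of these data known. Nothing is therefore read from a list's count or median against that of all genes. The deleted and B220lo libraries also differ in sort, Y-linked level and B cell stage markers, which cannot be told apart from genotype. Of 14 p53 target genes in the Cd79a comparison of the deleted with the B220lo library, 7 were higher and 1 lower, where 13.1% of all genes were higher and 12.4% lower. The median log2 ratio was 0.77 against 0.01 over all genes tested. Phlda3, a p53-induced inhibitor of Akt, stood at 45.9 against 2.06 CPM (22.3-fold, 18.5 to 27.2), and Zmat3, an RNA-binding p53 target, at 30 against 2.12 CPM (14.2-fold). Trp53inp1 was 0.447-fold, at 55.6 against 124 CPM, and Plk2 was 0.479-fold, at 5.97 against 12.5 CPM, which is within 2-fold once 1 CPM is added. The count was also 7 higher and 1 lower in cells with no contig, of 14 tested, where 11.7% and 10.9% of all genes were, and in heavy chain only cells, of 13 tested, where 14.8% and 8.48% were.

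Of 9 CDK and G1 or S cyclin genes, 2 were higher and 0 lower in the whole gate, where 13.1% and 12.4% of all genes were. With no contig 1 was higher and 0 lower, and among heavy chain only cells 0 were higher and 1 lower. In the whole gate, Ccne1, the cyclin E1 partner of CDK2, stood at 41.5 against 16.4 CPM (2.53-fold), and Skp2, the ubiquitin ligase subunit that targets p27, at 48.7 against 22.5 CPM (2.16-fold), while Cdk6 stood at 106 against 165 CPM. Of 3 other inhibitor genes, Cdkn2b, the neighbour of Cdkn2a that encodes p15, was 15.1-fold higher, at 1.40 against 0.0928 CPM (137 and 5 UMIs). Cdkn2d, which encodes p19Ink4d, was lower, at 57.3 against 142 CPM (0.404-fold). Of 12 retinoblastoma and E2F genes, 0 were higher and 1, Rb1, was lower, at 52.2 against 111 CPM (0.469-fold). With no contig 0 passed, and among heavy chain only cells 0 were higher and 2 lower, Rb1 at 0.442-fold and E2f1 at 0.458-fold. Of 20 S phase genes, Chaf1b was higher, at 180 against 39.6 CPM (4.54-fold), and Uhrf1 lower, at 71.9 against 160 CPM (0.449-fold). With no contig 1 was higher and 1 lower, and the 20 summed to 2456 CPM in deleted and 2488 CPM in B220lo cells. Among heavy chain only cells 1 was higher and 4 lower, among them Uhrf1 at 0.259-fold and Cdc6 at 0.437-fold, and the sums were 2347 and 3286 CPM. Of the 20 G2 and mitosis genes 0 passed in the whole gate or in either contig state. They summed to 3984 CPM in deleted and 3410 CPM in B220lo cells of the whole gate, to 4043 and 4013 CPM in cells with no contig, and to 3790 and 5315 CPM in heavy chain only cells, where 1 of the 20 was above the B220lo level.

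Outside the B lineage, 1 of 12 tested retinoblastoma and E2F genes and 1 of 9 or 10 tested p53 targets passed in deleted over control Hlf and Elane cells, where 4% and 3.79% of all genes did. E2f2, an activating E2F, was 4.42-fold higher in deleted over control Hlf cells, at 24.3 against 5.49 CPM, and 3.96-fold higher in Elane cells, at 16.9 against 4.26 CPM. Perp, a p53 target of cell adhesion, was lower in both, at 0.280-fold and 0.151-fold. B lineage markers summed to 1047 and 963 CPM in the deleted Hlf and Elane cells, against 44.6 and 55.9 CPM in the control. The part of that RNA in the E2f2 and Perp differences was not tested. In deleted over control Car1 cells, 1 of 9 p53 targets and 1 of 20 G2 and mitosis genes passed, where 4.38% of all genes did: Sesn2 was 0.364-fold, with 3 UMIs in the deleted cells, and Kif23, a mitotic kinesin, 0.481-fold. In Mll3/4SI over control Fcer1a cells, where 7.59% of all genes passed, E2f2 was 0.408-fold, Sesn2 0.406-fold and Trp53inp1 3.03-fold. In Mll3/4SI over control Hlf, Elane and Car1 cells 0 genes of the cell cycle and p53 lists passed.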

How the data were processed

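Gene expression libraries and B cell receptor contigs of 4 samples were used. The matrices hold UMI counts per gene and cell, deposited by the authors without normalization. They were made with Cell Ranger 7.1.0 on mm10, per the submitters' processing notes; filters before deposit are not given in the sources used here. The contig tables give read and UMI counts per contig, as deposited by the authors.

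Cells with 1000 or more UMIs, 500 or more genes and at most 10% mitochondrial UMIs were kept. Scrublet (scanpy 1.11.5) scored doublets. Its own threshold called 1166, 0, 1 and 0 cells, so it had not worked in 3 libraries, and a score above 0.25, chosen after the scores were seen, removed 840, 1168, 580 and 949 cells. Gates were set on raw UMIs, and a cell could enter several. UMIs were summed per library and gate and divided by the group's total (CPM). Groups of fewer than 50 cells were not compared. Log2 ratios had 1 CPM added. The other ratios had none.

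The members, lists and gates were chosen with earlier results of these data known. The text names the 8 genes in every gate, the largest changes each way of each list, and the 3 genes most like each member. The ratio script was tested on simulated data. Alternatives varied doublets, filters, gates, scaling, pseudocount, depth and fold.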

Additional observations from a re-analysis of the deposited data

Results flagged for a closer look

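Across 13 comparisons, 3 genes had intervals for the same contrast above 1 in 1 gate, library or contig state and below 1 in another. How many of all genes meet that rule is not given here. Counting intervals of genes with many UMIs leave out 1 even at small ratios, so nothing is read from the count of 3. None of these differences was tested. The ratios of cycling cells over cells with 0 G2 and mitosis UMIs were not counted here, and some of them turned too, as for Ccnd3. Ccnd2 in Mll3/4SI over control was 1.08-fold in Car1 cells, above the control, but 0.762-fold in Hlf, 0.785-fold in Elane and 0.595-fold in Fcer1a cells, below it. Cdkn1a in heavy chain only over no contig Cd79a cells was 1.06-fold in the deleted library but 0.487-fold in control B220lo. Cdkn1b in deleted over B220lo Cd79a cells was 1.1-fold in heavy chain only cells and 0.908-fold in cells with no contig, and alternatives turned both directions, with log2 ratios down to -0.20 and up to 0.40. With 1 library a group, the spread between samples behind all of them is unknown.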

How the results depend on the processing

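The deleted over B220lo Cd79a comparison had between 4 and 6 genes past 2-fold under every alternative run, the fewest among cells with a Kit UMI. None of its 6 genes changed direction. Among cells with a Kit UMI, Ccnd1 had 46 deleted and 38 B220lo UMIs, short of the 100 needed in a pair. The share of all genes that passed is given here only for the main settings and at 1.5-fold. Counts under the other alternatives are thus not set against all genes, and nothing is read from their being kept. With a pseudocount of 10 CPM, Cdkn1c fell within 2-fold in the deleted over B220lo Cd79a comparison, at a log2 ratio of 0.82. It did so too with no contig (0.86) and with a heavy chain only (0.68). Over all comparisons, 248 log2 ratios of single genes moved by more than counting error and 941 did not. Comparisons outside it rest on few genes near the threshold, and the cause of each change below was not tested. In deleted over control Hlf cells, 0 genes became 2 with doublets kept, without a cell filter or at 1.5-fold, and 1 with doubled thresholds, the mean of each cell's CPM, thinning or no UMI minimum. In Elane cells, 0 became 2 with doublets kept, without a cell filter or at 1.5-fold. It became 1 with stricter cells, cells in 1 gate, doubled thresholds or gate thresholds set per 10000 UMIs of a cell. The same count came with a total without ribosomal and mitochondrial genes, centring, the mean CPM, a pseudocount of 0.1 or no minimum. In Car1 cells, 0 became 1 with doublets kept, no filter, the mean CPM or 1.5-fold. In Mll3/4SI over control Hlf cells, 0 became 1 with cells in 1 gate, doubled thresholds, thresholds per 10000 UMIs or the mean CPM. It became 2 at 1.5-fold. In Elane cells, 1 became 0 with a pseudocount of 10 and 2 at 1.5-fold. In Car1 cells, 0 became 1 with doublets kept, no filter, a pseudocount of 0.1 or 1.5-fold. In Fcer1a cells, 0 became 1 with cells in 1 gate or thresholds per 10000 UMIs, and 4 at 1.5-fold. In B220lo heavy chain only over no contig cells, 1 became 2 with stricter cells, cells in 1 gate, a pseudocount of 0.1, 1.5-fold or without shared barcodes. It became 0 with the mean CPM, thinning, a pseudocount of 10 or under 3 Siglech UMIs. In light chain over heavy chain only cells, 0 became 1 with thinning or at 1.5-fold. At 1.5-fold many more of all genes tested passed too: 10.4%, 8.92% and 12.7% in deleted over control Hlf, Elane and Car1 cells, 6.84%, 5.58%, 3.45% and 18.5% in Mll3/4SI over control Hlf, Elane, Car1 and Fcer1a cells, 10.2% in heavy chain only over no contig and 17% in light chain over heavy chain only B220lo cells.

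The alternatives with cells holding a Kit UMI, with cells under 3 Siglech UMIs and without shared barcodes were added after seeing the data. No paired analysis was possible because each group is 1 library. Depth limits the small groups most: 0 UMIs in the 62 deleted Car1 cells allow up to 2.36 CPM.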

Other observations

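Cells of the B220lo library outside the 5 gates held most of its Ccnd1. In 1526 cells with 3 or more UMIs of Siglech, a surface marker of plasmacytoid dendritic cells, Ccnd1 stood at 435 CPM (422 to 448). The 633 cells with T or NK markers had 3.12 CPM and the 2242 other cells 37.3 CPM. Ccnd2 was highest in the T or NK group, at 230 CPM, with 51.9 in the Siglech group and 95.2 in the others. Cdkn2c stood at 106, 39.7 and 61.3 CPM in the Siglech, T or NK and other cells.

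The genes that followed a member most closely were sought over 15 groups, each a library and gate with enough cells to compare. Pearson's r was taken among 6701 genes, on log2 of CPM with 1 CPM added. No p is given, since the groups share libraries and depth. Runx2 followed Ccnd1 (0.906), with Ints1 (0.844) and Ivns1abp (0.836). Polr3b (0.820), Myo18a (0.814) and Clint1 (0.812) followed Ccnd2, and Rock1 (0.964), Mdm2 (0.960) and Phip (0.960) followed Ccnd3. Dnmt3a (0.940), Lxn (0.933) and Arl6ip1 (0.905) followed Cdkn1a, and Cdc25b (0.964), Kansl1l (0.959) and Lcor (0.958) followed Cdkn1b. Ptms (0.916), Cers4 (0.897) and H1f0 (0.891) followed Cdkn1c. Ntn1 (0.917), Smtn (0.908) and Brinp3 (0.905) followed Cdkn2a, and Cep250 (0.974), Mgat4a (0.957) and Stx8 (0.956) followed Cdkn2c. Cdkn2a stood at 37.5 CPM in the deleted Cd79a group and at most 3.61 CPM in the other groups used. Its r values therefore lean on that single group. Among the members the closest pair was Ccnd3 with Cdkn1b (0.94), and Ccnd2 ran opposite to Cdkn1a (-0.74). The deleted Cd79a group was also extreme for 3 other members. Cdkn1a had 83.7 CPM there and at most 28.4 CPM in the other groups used, and Cdkn2c 260 and at most 67 CPM. Ccnd2 had 29.8 CPM there and at least 53 CPM in the others. How far the r values of these members, the -0.74 included, rest on that group was not tested.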
